A study of Mus musculus with 4 samples.

Results

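Lymphatic endothelial cells line the vessels that drain fluid, lipid and leukocytes from a tissue. They were taken here from droplet single-cell RNA-seq of the stromal vascular fraction of mouse inguinal white adipose tissue, the cells that remain when a fat pad is digested and its adipocytes are removed. The 2 groups were iAdFASNKO mice, 8 pooled into 1 cell suspension, and control mice named as C57BL/6 in the design text, 7 pooled into another. The labels do not spell out iAdFASNKO, a name known to stand for inducible loss of Fasn, which encodes fatty acid synthase, in adipocytes alone, and they give neither age, sex nor induction. Each pool was divided on magnetic beads into lineage-positive (Lin+) cells, mostly immune, and the remaining lineage-negative (Lin-) stromal cells, which gave 1 library for each genotype and fraction. With 1 library a group no test between genotypes was possible. Every interval below covers counting error at the 95% level only, not the spread between mice. Intervals of levels and of their ratios treat the UMIs summed over cells as independent. They therefore leave out the spread between cells too, and 1 deep cell can move a ratio past its interval.

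A cell was kept with at least 300 genes, at least 500 unique molecular identifiers (UMIs, 1 for each captured transcript) and at most 10% of UMIs from mitochondrial genes. Members were chosen by UMIs of marker genes. A cell was a member with UMIs of at least 2 of 8 endothelial genes (Pecam1, Cdh5, Egfl7, Tie1, Esam, Cldn5, Kdr, Flt1), with either Prox1 or at least 2 of Mmrn1, Reln and Ccl21a, and with no UMI of Ptprc or Pdgfra. The rule left 206 members among 4412 Lin- iAdFASNKO cells and 125 among 3103 Lin- control cells, 331 of 7515 cells in all. These genes chose the members, so their levels are a description. Just inside the rule, 12 iAdFASNKO and 3 control members had exactly 2 of the 8 endothelial genes. Just outside it, 31 iAdFASNKO and 25 control cells had 1 of Mmrn1, Reln and Ccl21a and no Prox1, and 8 iAdFASNKO and 2 control cells had Prox1 with only 1 endothelial gene. Ptprc or Pdgfra removed 9 further cells from each library.

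As background, Prox1 is the transcription factor that sets and keeps lymphatic fate, and Flt4 encodes the receptor for the lymphatic growth factor VEGF-C. Blind-ended lymphatic capillaries are known for the hyaluronan receptor Lyve1 and for CCL21, the chemokine that draws dendritic cells into lymph, and they feed into collecting vessels that carry valves and little of either. In adipose tissue lymphatic vessels carry away fluid, immune cells and lipid, and leaking lymph is known to promote fat deposition.

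The chemokine gene needs its own caution, because the mouse genome carries near-identical copies of Ccl21. The files give the symbol Ccl21a to 2 features, which were summed. One lies on chromosome 4 (42772860 to 42773993, minus strand) and the other on an unplaced scaffold. Gm21541 is a separate feature, which RefSeq lists as Ccl21d. The 250 bases ahead of each RefSeq start are shown because they show how alike the copies are. They are printed 5′ to 3′ on the gene's own strand in build GRCm38.p6, Ccl21a at chr4:42773992-42774241 on the minus strand and Gm21541 at chr4:41903363-41903612 on the plus strand. Shifted by 1 base, 248 of 249 compared bases were the same (99.6%), and the capital marks the base that differs.
Ccl21a: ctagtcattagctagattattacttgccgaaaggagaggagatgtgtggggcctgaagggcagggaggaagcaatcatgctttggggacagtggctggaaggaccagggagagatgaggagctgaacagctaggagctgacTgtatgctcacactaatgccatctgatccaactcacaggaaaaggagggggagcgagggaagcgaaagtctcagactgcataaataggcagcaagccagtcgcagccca
Gm21541: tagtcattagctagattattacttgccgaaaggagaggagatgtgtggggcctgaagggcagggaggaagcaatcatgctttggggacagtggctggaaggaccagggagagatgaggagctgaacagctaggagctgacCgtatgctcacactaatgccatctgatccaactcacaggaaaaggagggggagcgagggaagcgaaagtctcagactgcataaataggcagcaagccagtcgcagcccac
Members held 4972 iAdFASNKO and 9129 control UMIs of Ccl21a, beside 154 iAdFASNKO and 168 control UMIs of Gm21541. How the counting divided reads between such copies is not given in the sources used here, so both levels are uncertain.

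The libraries differed in depth before any gene was compared. Members had a median of 3093 UMIs in iAdFASNKO and 8080 in control, with ranges of 547 to 36935 and 605 to 81043, and summed to 1159177 and 1515102 UMIs. The same gap stood in all retained Lin- cells, with medians of 4205.5 UMIs in iAdFASNKO and 9138 in control. Libraries also shared cell barcodes: 11 of the 206 iAdFASNKO and 13 of the 125 control members had a barcode kept in another library as well, and in 3 and 0 of these the copy elsewhere was at least 10 times deeper. Levels below are counts per 1e6 UMIs (CPM), summed over the members of a library, without regard to gene length, since the kit counts 3' ends.

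The label held for most of the members. Flt4, which the rule did not use, averaged 353 CPM in iAdFASNKO members and 386 CPM in control members, against 3.87 and 4.22 CPM in all other cells of the same libraries. Tbx1, a transcription factor gene of lymphatic development, had 188 CPM in iAdFASNKO and 220.0 CPM in control members, against 4.41 and 6.00 CPM in other cells. Fxyd6, a regulator of the sodium pump, had 921 and 1183 CPM, against 51.5 and 41.2 CPM. Sema3d, a secreted guidance cue, had 361 and 350.5 CPM, against 13.4 and 8.68 CPM. All 15 lymphatic markers outside the rule were measured in members, meaning at least 20 UMIs over both Lin- libraries. The 15 summed to 6064 CPM in iAdFASNKO and 6469 CPM in control members, against 994 and 945 CPM in other cells. Maf and Thy1 were also common in the other cells, Maf at 374 CPM in iAdFASNKO and 249 CPM in control and Thy1 at 122 and 227 CPM. Pdpn stood apart less than the genes above, with 124 and 136 CPM in members against 68.0 and 66.2 CPM in other cells. Markers of immune cells were near absent in members, with 8 of 16 at 0 in both libraries and summed levels of 4.31 CPM in iAdFASNKO and 4.62 CPM in control. Ptprc is among the 16 and was set to 0 by the rule.

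Blood endothelial cells were few, 60 in the iAdFASNKO and 8 in the control Lin- library. They were taken as cells with at least 3 of the 8 endothelial genes and no UMI of Prox1, Mmrn1, Reln, Ptprc or Pdgfra. This class was not free of other signal. Mural cell markers summed to 3246 CPM in its iAdFASNKO and 6908 CPM in its control cells, against 1459 and 281 CPM in members. Outside the rule, Lyve1 was at 0 UMIs in these cells in both libraries, so its member level was at least 61.3-fold higher in iAdFASNKO and at least 15.9-fold higher in control, taking a floor of 3 UMIs per class and library. Ccl21a was not among the genes that defined them, and had 2150.1 CPM in the iAdFASNKO ones, with UMIs in 8.33% of cells, and none in the control ones. Il7, a cytokine that lymphatic vessels make for T cells, was also at 0 there, and had 111 CPM in iAdFASNKO and 116 CPM in control members. Pard6g, a polarity gene, had 336 CPM in iAdFASNKO and 413 CPM in control members against 6.49 and 0 CPM in blood endothelial cells. Klrb1f, Ston2 and Fam180a had no UMI in the blood endothelial cells of either library. Klrb1f had 73.3 CPM in iAdFASNKO and 81.8 CPM in control members, at least 7.54-fold and 1.71-fold higher by the same floor. Ston2 was at least 9.13-fold higher in iAdFASNKO and 1.99-fold in control. Fam180a was at least 5.85-fold higher in iAdFASNKO members. Its control member level of 33.0 CPM lay below the floor of 47.8 CPM, so the 0 there cannot show a difference.
On the other side Aqp1, the water channel of blood capillaries, had 321 CPM in iAdFASNKO and 169 CPM in control members, against 2513 and 971 CPM in blood endothelial cells. Cytl1, which encodes a small secreted protein, had 276 and 70.0 CPM against 1985 and 1512 CPM. The endothelial clotting gene Vwf had 429.6 and 212 CPM against 2390.1 and 1289 CPM, and the phosphatase gene Ptprb had 404 and 286 CPM against 1985 and 1671 CPM.

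The members were not uniform, and fell into sets that both libraries shared. By the lymphatic genes they held, 86 iAdFASNKO members (41.7%, exact binomial interval 34.9 to 48.8%) and 52 control members (41.6%, 32.9 to 50.8%) had a UMI of Ccl21a or Reln. Another 87 iAdFASNKO (42.2%) and 65 control members (52.0%) had Mmrn1 and neither of the other pair. The remaining 33 iAdFASNKO (16.0%) and 8 control members (6.40%) had entered on Prox1 alone, without any of the 3 genes. This division was made after the values had been seen and gets no test.

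Lyve1 lies on chromosome 7 (110850607 to 110863239, minus strand, GENCODE M21 on GRCm38). Among members its UMIs lay almost wholly in those with Ccl21a or Reln, though not in all of these cells. Neither the rule nor the division used Lyve1. Members with Ccl21a or Reln had 1495 CPM in iAdFASNKO and 1821 CPM in control. Members with Mmrn1 alone of the 3 genes had no Lyve1 UMI in any of 87 iAdFASNKO or 65 control cells, and taking 3 cells as the limit that a count of 0 allows, the share of cells with a UMI could be up to 3.45% and 4.62%. Their depth was the greater, with a median of 4055 UMIs in iAdFASNKO and 8674 in control, against 2525.5 and 6663 in members with Ccl21a or Reln. The level in members with Ccl21a or Reln was at least 269-fold higher in iAdFASNKO and at least 457-fold higher in control. With every cell thinned to 2000 UMIs, 58.3% of iAdFASNKO and 64.6% of control members with Ccl21a or Reln kept a Lyve1 UMI, against 0.305% and 0.149% of other cells. Unthinned, the shares in members were 67.4% and 67.3%.

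**Figure D1:**
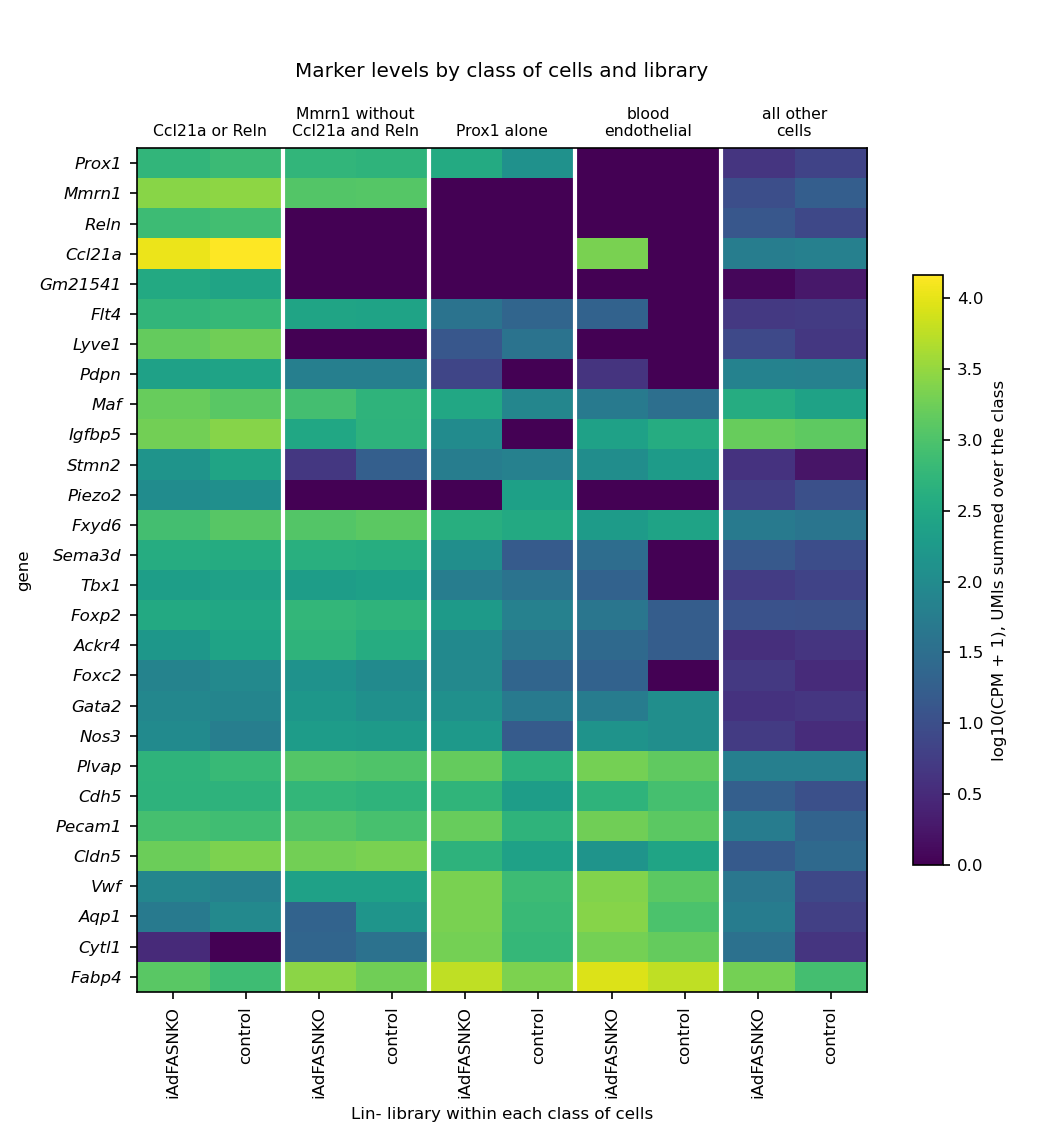
Levels of 28 genes as log10(CPM + 1), UMIs summed over each class of cells, with the iAdFASNKO column left of the control column. Lyve1 and Piezo2 are at 0 in Mmrn1 members without Ccl21a and Reln. Reln and Ccl21a are at 0 there by definition, and Gm21541, also at 0, is a near-identical copy of Ccl21a. Vwf, Aqp1 and Cytl1 are high in Prox1-alone members and in blood endothelial cells.

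Both chemokine and Reln together marked the Lyve1 cells most closely. Of the members with both Ccl21a and Reln, 53 of 61 in iAdFASNKO (86.9%) and 35 of 40 in control (87.5%) had a Lyve1 UMI, at 3296 and 3256 CPM. Of those with Reln and no Ccl21a, 1 of 18 in iAdFASNKO and 0 of 7 in control had a Lyve1 UMI, although they were deep, with medians of 10166 and 16779 UMIs. The few members with Ccl21a and no Reln were divided, with Lyve1 in 4 of 7 iAdFASNKO and 0 of 5 control cells. Foxp2, a forkhead transcription factor gene, ran the other way. It had a UMI in 9 of 61 iAdFASNKO and 9 of 40 control members with both genes, and in 76 of 87 iAdFASNKO and 63 of 65 control members with Mmrn1 alone of the 3. Ackr4, a scavenging receptor that removes CCL19 and CCL21, had a UMI in 1 of 61 and 2 of 40 members with both genes, against 60 of 87 and 53 of 65. In members with Reln and no Ccl21a, Foxp2 was found in 16 of 18 iAdFASNKO and 7 of 7 control cells and Ackr4 in 14 of 18 and 6 of 7, close to the Mmrn1 members.

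**Figure D2:**
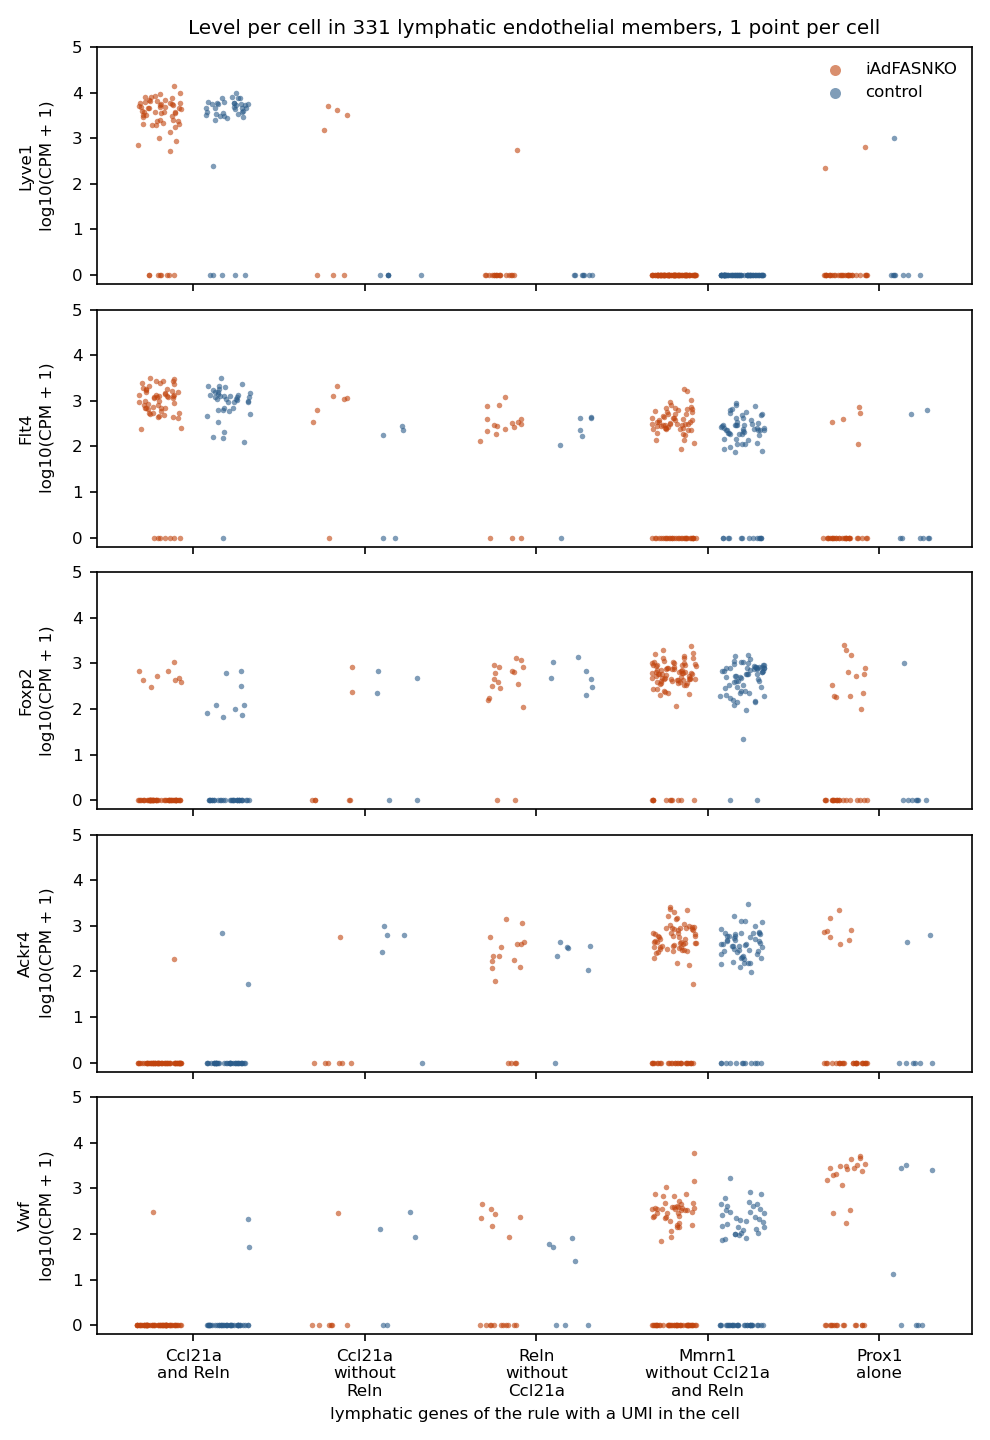
Level of 5 genes in each Lin- member as log10(CPM + 1), 1 point per cell, iAdFASNKO left of control, by which lymphatic genes of the rule had a UMI. Lyve1 points above 0 lie almost all in the column with Ccl21a and Reln, and Foxp2 and Ackr4 points above 0 mostly in the columns without Ccl21a.

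More genes divided the same sets. Levels of the set with Ccl21a or Reln are mixed, since members with both genes held 202651 of its 460820 iAdFASNKO UMIs. In control they held 351035 of 627604 UMIs. Members with Reln and no Ccl21a held 229444 and 133980 UMIs. Ratios of this set, here and between genotypes, carry that mixture. Genes with at least 50 UMIs over these sets in each library numbered 3290. Of them, 92 were at least 1.5-fold higher and 59 at least 1.5-fold lower in members with Ccl21a or Reln than in Mmrn1 members. Each such gene had an interval without 1 in each library. Ccl21a and Reln, which made the division, and the near-identical copy Gm21541 are among the 92, so these are no finding. Igfbp5, an insulin-like growth factor binding protein gene, had 1923 CPM in iAdFASNKO and 2551 CPM in control members with Ccl21a or Reln, against 302 and 498 CPM in Mmrn1 members. Piezo2, a mechanically gated channel gene, had 104 and 116 CPM and no UMI in the Mmrn1 members. Pdpn, the lymphatic surface glycoprotein gene, had 239 and 255 CPM against 61.0 and 61.1 CPM, and Stmn2, a microtubule regulator gene, had 143 and 266 CPM against 3.70 and 17.3 CPM. Flt4 was higher in the same members, by 2.04-fold in iAdFASNKO (1.66 to 2.52) and 2.40-fold in control (2.01 to 2.86), and so was Maf, by 1.90-fold (1.68 to 2.14) and 2.44-fold (2.15 to 2.76).
Other genes were higher in the Mmrn1 members. Klf2, the shear-induced transcription factor gene, had 527 CPM in iAdFASNKO and 607 CPM in control Mmrn1 members, against 217 and 242 CPM in members with Ccl21a or Reln. Nos3, the endothelial nitric oxide synthase gene, had 196 and 182 CPM against 97.6 and 59.0 CPM. Procr, the protein C receptor gene, had 431 and 521 CPM against 182 and 274 CPM, and Plvap, the gene of the fenestral diaphragm protein, had 1101 and 1026 CPM against 516 and 626 CPM. Of the valve genes, Gata2 had 159 and 121 CPM in Mmrn1 members against 82.5 and 78.1 CPM. Foxc2 had 131 against 71.6 CPM in iAdFASNKO but was near level in control, at 97.0 against 90.8 CPM. Cldn11 ran the other way, with 18.5 and 55.8 CPM in Mmrn1 members against 78.1 and 90.8 CPM. The 2 libraries gave the same order of sets for each of these genes, though by little for Foxc2 in control.

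The Prox1-alone members were a mixed set in which the label held less well. Flt4 had 38.0 CPM in the 33 iAdFASNKO and 22.2 CPM in the 8 control cells, and Pdpn 6.34 and 0 CPM. Genes of the blood endothelial cells were high: Vwf had 2110.1 CPM in iAdFASNKO and 718 CPM in control, Aqp1 had 2142 and 651 CPM, and Cytl1 had 1945 and 585 CPM. Not every cell was alike, since Vwf had a UMI in 18 of 33 iAdFASNKO and 4 of 8 control cells, Foxp2 in 13 of 33 and 1 of 8, Ackr4 in 8 of 33 and 2 of 8, and Flt4 in 5 of 33 and 2 of 8. In control a single cell of 81043 UMIs held 60.0% of the set's UMIs, with 315 UMIs of Krt19, a mesothelial keratin gene, and 1040 UMIs of Ptn. Without it the other 7 control cells had 1776 CPM of Vwf, 1628 CPM of Aqp1 and 1462 CPM of Cytl1, beside 55.5 CPM of Flt4 and 92.5 CPM of Lyve1. These cells are called Prox1-alone members here. The counts of genotype calls, and the results that turn on these cells, are given with and without them.

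Members made up a slightly larger share of the Lin- cells in iAdFASNKO, within counting error. The share was 4.67% in iAdFASNKO (exact interval 4.07 to 5.33%) and 4.03% in control (3.36 to 4.78%), a ratio of 1.16 (0.933 to 1.44). It was 1.04 (0.826 to 1.31) without the Prox1-alone members, 1.07 (0.815 to 1.40) with the rule applied to cells thinned to 2000 UMIs, and 1.21 (0.962 to 1.52) without shared barcodes. A stricter cell filter, with at least 1000 genes, 1500 UMIs and at most 5% mitochondrial UMIs, gave 1.69 (1.27 to 2.23), with 140 iAdFASNKO and 70 control members. Beads and digestion also set these shares.

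Between genotypes, 9285 genes were measured in members. A gene was called when its CPM ratio, iAdFASNKO over control, was at least 1.5 or at most 1/1.5 and the exact conditional binomial interval left out 1. By that rule 332 genes (3.58%) were higher and 546 (5.88%) lower in iAdFASNKO members, 9.46% of those measured in either direction, and the median log2 ratio was -0.06. Higher calls were 37.8% of all calls, and 49.2% when the libraries were scaled by the median of ratios, with 423 higher and 437 lower. Without the Prox1-alone members 296 were higher and 458 lower, and without shared barcodes 325 were higher and 476 lower. Of the 332 higher genes, 117 were past 1.5-fold in the same direction in all other cells of the same libraries, and of the 546 lower genes 132 were. The other cells summed to 20419353 UMIs in iAdFASNKO and 27988858 in control, far more than the members, so intervals were narrower there. The share of all genes called in other cells is not given here. Counts of calls in other cells therefore cannot be read against the shares in members. Few calls stood under every choice: 18 higher and 31 lower genes were called under all 14 alternatives in cells, members and scaling. Fasn itself had 6 UMIs in iAdFASNKO and 15 in control members, a ratio of 0.52 (0.17 to 1.43). These cells are not the adipocytes in which it is deleted, so this does not check the labels.

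The genes of lymphatic identity stayed within 1.5-fold over all members. Log2 ratios of the 15 lymphatic markers outside the rule ran from -0.52 to 0.46, with a median of -0.13. None was called in either direction, beside 9.46% of all measured genes. In a list of 15 that share leaves few calls, so the count of 0 says little by itself. Without the Prox1-alone members 1 was called lower. Within members with Ccl21a or Reln 1 of 15 was called higher and 2 lower, and within Mmrn1 members 1 of 14 higher and 1 lower. Lyve1 had 596 CPM in iAdFASNKO (553 to 642) and 758 CPM in control (714 to 803), a ratio of 0.79 (0.71 to 0.87), and 0.82 within the members with Ccl21a or Reln. Within the members with both Ccl21a and Reln it was level, at 3296 CPM in iAdFASNKO and 3256 CPM in control, a ratio of 1.01 (0.919 to 1.11). Without shared barcodes its log2 ratio was -0.63, past 1.5-fold, against -0.35 with them. Flt4 had 353 CPM (319 to 389) and 386 CPM (355 to 419), a ratio of 0.91 (0.80 to 1.04). Maf had 1069 and 776 CPM, a ratio of 1.38 (1.27 to 1.49), and its ratio in other cells was 1.501. Fxyd6 had a ratio of 0.78 (0.72 to 0.84). The genes of the rule, given as a description, had ratios of 0.96 for Prox1, 0.91 for Mmrn1, 0.87 for Reln and 0.71 for Ccl21a, the last at 4289 CPM in iAdFASNKO and 6025 CPM in control. Without shared barcodes the Ccl21a log2 ratio was -0.76, against -0.49 with them.

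Growth receptors and signalling genes were nearly level. Of 19 measured genes in that list 1 was called higher and 1 lower, with a median log2 ratio of -0.03. Ephb4, the receptor of ephrin-B2 in lymphatic valves and sprouts, was lower, with 87.1 CPM in iAdFASNKO and 131 CPM in control and a ratio of 0.66 (0.52 to 0.85). Its ratio was 0.48 in members with Ccl21a or Reln and 0.86 in Mmrn1 members. Nrp1, a semaphorin and VEGF co-receptor, was higher at 26 against 8 UMIs, and only with the Prox1-alone members included. Of 16 valve and collecting vessel genes 2 were called lower and none higher, with a median of -0.05. Among them was the tight junction gene Cldn11, with 42.3 CPM in iAdFASNKO and 68.0 CPM in control and a ratio of 0.62 (0.43 to 0.88). Foxc2, the valve transcription factor gene, had 102 CPM in iAdFASNKO (84.3 to 122) and 87.8 CPM in control (73.5 to 104).

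Some antigen presentation genes were called lower in iAdFASNKO members, and some in the other cells too. All 13 class I genes measured had a ratio below 1, 4 of them called lower and none higher, with a median log2 ratio of -0.51. H2-D1, a classical class I heavy chain gene, had 1272 CPM in iAdFASNKO (1208 to 1339) and 1983 CPM in control (1912 to 2055), a ratio of 0.64 (0.60 to 0.68). The immunoproteasome gene Psmb8 had 145 and 226 CPM, a ratio of 0.64 (0.53 to 0.77), and the peptide transporter gene Tap1 had 32.8 and 58.1 CPM, a ratio of 0.56 (0.38 to 0.83). H2-Q7 was the other gene called lower, at 237 and 366 CPM. It belongs to a family of near-identical genes, so its level is uncertain. B2m, the shared light chain gene, had 1167 and 1412 CPM, a ratio of 0.83 (0.77 to 0.89). The 13 genes summed to 5360 CPM in iAdFASNKO and 7450 CPM in control members. In other cells they summed to 2357 and 4416 CPM with a median of -0.90 and 9 called lower. In the few blood endothelial cells the sum was the other way round, at 4819 CPM in iAdFASNKO and 3964 CPM in control. Without the Prox1-alone members 5 class I genes were called lower, with a median of -0.50. Without shared barcodes the median in members was -0.51 again, and H2-D1 had a log2 ratio of -0.69 against -0.64 with them.
Class II genes, known from professional antigen-presenting cells and present at low levels in lymphatic endothelium, included 3 called lower of 6 measured and none higher, with a median of -0.83, or -0.70 without the Prox1-alone members. H2-Aa had 26.7 CPM in iAdFASNKO and 65.3 CPM in control, a ratio of 0.41 (0.26 to 0.62), H2-Eb1 had 31.9 and 52.8 CPM, and H2-DMa had 3.45 and 13.2 CPM. In members with Ccl21a or Reln H2-Eb1 had a ratio of 1.17. There 3 class II genes were measured, 1 called higher and 1 lower, and the list summed to 143 CPM in iAdFASNKO and 153 CPM in control. In other cells the class II median was -0.64.

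Of 17 interferon response genes measured 4 were called lower, none higher and 13 neither, with a median log2 ratio of -0.38, against -0.18 in other cells. Without the Prox1-alone members 4 were again called lower, with a median of -0.33. The list summed to 1495 CPM in iAdFASNKO and 2424 CPM in control, and Ifi27l2a, an interferon-induced gene, made up most of that gap. It had 463 CPM in iAdFASNKO and 1142 CPM in control, a ratio of 0.41 (0.37 to 0.45), with 0.36 in members with Ccl21a or Reln, 0.47 in Mmrn1 members and 0.58 in other cells. Ifit1, an RNA-binding antiviral gene, had 44.0 and 83.8 CPM, a ratio of 0.52 (0.37 to 0.73). Irf7, the transcription factor gene that amplifies the response, had 11.2 and 23.8 CPM, and Ifi35 had 31.1 and 49.5 CPM. Isg15 and Bst2 had ratios of 0.77 and 0.80, short of 1.5-fold.

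**Figure D3:**
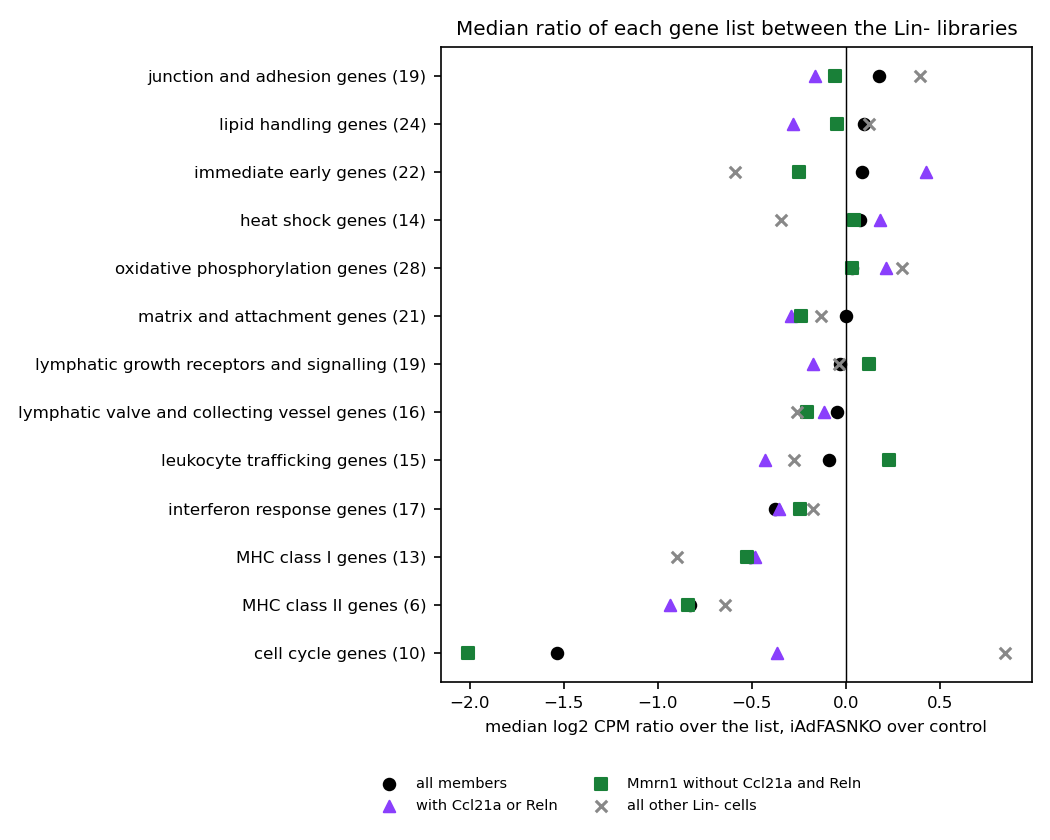
Median log2 CPM ratio, iAdFASNKO over control, of each gene list, with the number of genes measured in members in brackets. Circles are all members, triangles members with Ccl21a or Reln, squares Mmrn1 members without them and crosses all other Lin- cells. Class I and class II genes lie below 0 in every class plotted, while junction, immediate early and trafficking medians change sign between classes. The class II triangle rests on 3 measured genes, 1 called higher and 1 lower.

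Leukocyte trafficking genes included 1 called gene of 15 measured, with a median of -0.09. Cxcl12, the chemokine that holds and guides CXCR4-bearing cells, was higher, with 362 CPM in iAdFASNKO (329 to 399) and 203 CPM in control (181 to 227) and a ratio of 1.79 (1.54 to 2.08). The ratio was 1.93 in Mmrn1 members, 1.40 in members with Ccl21a or Reln and 1.30 in other cells. Its log2 ratio was 0.59 without shared barcodes, against 0.84 with them. S1pr1, the receptor for sphingosine 1-phosphate, had 604 and 498 CPM, a ratio of 1.21 (1.09 to 1.35). Stab1, a scavenger receptor gene, had 488 and 657 CPM, a ratio of 0.74 (0.67 to 0.83). Ackr4 had 315 and 300.3 CPM, a ratio of 1.05 (0.91 to 1.21).

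Lipid handling genes moved in both directions. Of 24 measured 4 were called higher and 4 lower, with a median of 0.10, and 3 higher and 4 lower without the Prox1-alone members. Fabp4, the fatty acid binding protein gene of capillary endothelium and adipocytes, had 2573 CPM in iAdFASNKO (2482 to 2667) and 1397 CPM in control (1338 to 1457), a ratio of 1.84 (1.74 to 1.95). It was also 2.30-fold higher in other cells, and it had a UMI in 56.6% of other iAdFASNKO and 44.1% of other control cells at 2000 UMIs. Cd36, the fatty acid uptake receptor gene, had 73.3 and 38.3 CPM, a ratio of 1.92 (1.36 to 2.72). Cpt1a, the gate of mitochondrial fatty acid oxidation, had 54.4 and 35.6 CPM, and Scarb1, the high-density lipoprotein receptor gene, 31.1 and 17.8 CPM. The log2 ratio of Scarb1 was 0.80 over all members, -0.16 with Prox1 required and -0.42 in Mmrn1 members. Without 1 control cell of 46774 UMIs it was 0.87 in Mmrn1 members, at 7 against 5 UMIs.
Lower was Gpihbp1, which carries lipoprotein lipase across the endothelium, with 87.1 CPM in iAdFASNKO and 164 CPM in control and a ratio of 0.53 (0.42 to 0.67). The ratio was 0.57 in members with Ccl21a or Reln, 0.49 in Mmrn1 members and 0.40 in other cells. Plin2, the lipid droplet coat gene, had 16 UMIs in iAdFASNKO and 56 in control, a ratio of 0.37 (0.20 to 0.66), and was 0.48 in other cells. Pparg, the adipogenic nuclear receptor gene, had 11 and 37 UMIs, a ratio of 0.39 (0.18 to 0.78), and Acsl5, an acyl-CoA synthetase gene, had 56.9 and 87.8 CPM. Lpl had 259 and 243 CPM and a ratio of 1.07 (0.91 to 1.24). Markers of adipocytes summed to 9.49 CPM in iAdFASNKO and 3.30 CPM in control members, with 5 of 6 at 0 in both. The part of free RNA in the Fabp4 ratio was not tested.

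**Figure D4:**
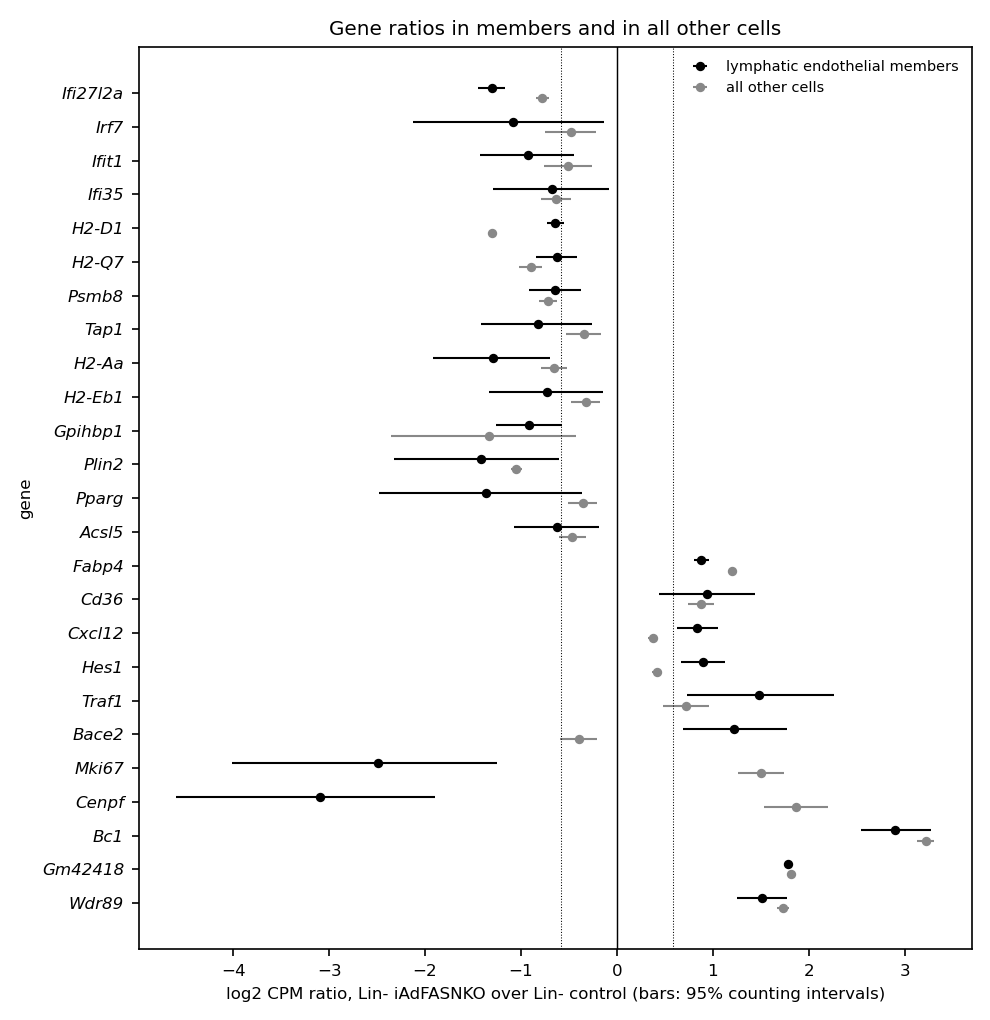
Log2 CPM ratio, iAdFASNKO over control, with 95% counting intervals for 25 genes in members (black) and in all other Lin- cells (grey); dotted lines mark 1.5-fold. Ifi27l2a, Gpihbp1, Plin2 and Fabp4 lie on the same side of 0 in both, whereas Bace2, Mki67 and Cenpf lie on opposite sides.

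Stress and energy genes were mixed. Of 22 immediate early genes, which respond within minutes to stimuli including tissue digestion, 2 were called higher and 2 lower with a median of 0.09, while in other cells 11 were lower and 1 higher with a median of -0.59. Zfp36, an mRNA decay factor gene, had 234 and 125 CPM, with a ratio of 4.20 in members with Ccl21a or Reln and 0.83 in Mmrn1 members, and Atf3, a stress transcription factor gene, had 204 and 114 CPM. Egr3 was lower at 9 against 56 UMIs, of which 1 control cell held 46, and its log2 ratio was -0.19 without shared barcodes, against -2.25 with them. Socs3, a feedback inhibitor of cytokine signalling, was lower at 82.8 and 131 CPM. Without the Prox1-alone members 2 immediate early genes were higher and 3 lower, with a median of -0.038. Of 14 heat shock genes 1 was higher, the small chaperone gene Hspb1, with 760.0 CPM in iAdFASNKO and 466 CPM in control, and none without the Prox1-alone members. None of 28 oxidative phosphorylation genes was called, with a median of 0.03.

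Cycling cells were rare. Of 10 measured cell cycle genes 5 were called lower and none higher in iAdFASNKO members, while 6 were called higher in other cells. Mki67, the proliferation marker gene, had 6 UMIs in 2 iAdFASNKO cells and 44 UMIs in 3 control cells, and Cenpf, a kinetochore gene, had 6 UMIs in 3 and 67 UMIs in 7 cells. Top2a had 1 and 40 UMIs, Ube2c 2 and 30 and Birc5 0 and 20. A single control cell held 35 of the 40 Top2a UMIs. Without shared barcodes the list's median log2 ratio was -0.84, against -1.53 with them, and that of Ube2c was -0.033, against -3.52. The other 5 measured genes, Pcna among them, were not called.

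Junction calls came with the Prox1-alone members. Of 19 junction and adhesion genes 3 were called higher over all members, the adhesion receptor genes Selp, Vcam1 and Jam2, and none without the Prox1-alone members, where the median was -0.11 against 0.18. Of 21 matrix and attachment genes 3 were called higher over all members. Without the Prox1-alone members 1 of 20 was called higher and 1 lower. Sparcl1, an anti-adhesive matrix protein gene, had 209.6 and 77.9 CPM, a ratio of 2.69 (2.15 to 3.38), and 2.54 without the Prox1-alone members. That direction did not hold throughout, with a log2 ratio for Sparcl1 of 1.43 over all members, -0.46 without members rich in the markers of other cell types and -1.20 in Mmrn1 members. Efemp1, at 14 against 6 UMIs, and Emilin1, an elastic fibre gene of lymphatic anchoring filaments, at 43 against 35 UMIs, were not called without them. The blood endothelial genes Vwf and Aqp1 also moved with which cells were counted. Vwf was 2.03-fold higher (1.76 to 2.34) over all members, 1.20-fold in members with Ccl21a or Reln and 0.98-fold in Mmrn1 members, and Aqp1 was 1.90-fold higher over all members, 0.56-fold and 0.14-fold. The low Mmrn1 values came with 1 control cell of 46774 UMIs, which held 80 of the 182 Vwf UMIs and 111 of the 112 Aqp1 UMIs of the control Mmrn1 members. Without that cell Vwf was 1.64-fold higher (1.25 to 2.15) in Mmrn1 members and Aqp1 stood at 11 UMIs in iAdFASNKO against 1 in control. Without the cell and the Prox1-alone members Vwf was 1.53-fold higher (1.21 to 1.92), against 1.02-fold with the cell, and Aqp1 had a ratio of 0.79 (0.50 to 1.24). For Mgp, the matrix Gla protein gene, the direction turned on the Prox1-alone members. Over all members Mgp was 1.31-fold higher (1.08 to 1.58), and 2.58-fold higher (2.04 to 3.28) once the cell of 46774 UMIs was dropped. With the Prox1-alone members dropped Mgp was lower, at 0.23-fold (0.15 to 0.33). With that cell dropped too it was at 0.55-fold (0.35 to 0.86). The cell held 111 of the 183 control UMIs of Mgp outside the Prox1-alone members.

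Mural cell markers were high in a few cells. Of 7 measured 5 were called higher in members, and 5 in other cells. Without the Prox1-alone members 4 of 6 were called higher. Over all members Acta2 had 535 CPM in iAdFASNKO and 102 CPM in control, Tagln had 538 and 64.0 CPM and Myh11 had 300.2 and 60.1 CPM. The 5 iAdFASNKO cells with most UMIs of each gene held 91.8% of the Acta2, 88.1% of the Tagln and 91.4% of the Myh11 UMIs. Members with over 1% of their UMIs in markers of mural cells, fibroblasts, Schwann cells, mesothelium or immune cells numbered 6 in iAdFASNKO and 1 in control. Without them the log2 ratios of Acta2 and Myh11 were -0.57 and -0.26. Glycam1, known from the high endothelial venules of lymph nodes, had 795 UMIs in 12 iAdFASNKO cells, 671 of them in 1 cell, and 47 UMIs in 3 control cells. Of 10 lymph node sinus genes 3 were measured. Of the other marker lists, fibroblast genes had 1 higher and 2 lower of 12 measured. Without the Prox1-alone members none of these was higher and 2 of 10 were lower. Schwann cell genes had 2 lower of 4, while all 4 were higher in other cells. Enpp2, the 1 reticular cell gene measured, was higher at 94.0 and 40.9 CPM. Krt19, the 1 mesothelial gene measured, had 0 and 316 UMIs, 315 of them in the control cell named above. Their part in the genotype differences was not tested.

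Several genes with firm ratios had ratios on the same side of 1 in the other cells. The neuronal noncoding RNA Bc1 had 374 CPM in iAdFASNKO and 50.2 CPM in control members, a ratio of 7.46 (5.84 to 9.65), and 9.32 in other cells. Gm42418, a locus overlapping ribosomal RNA, had 35280 and 10270 CPM, a ratio of 3.44, and 3.51 in other cells. Wdr89 had 346 and 121 CPM, a ratio of 2.85, and 3.32 in other cells. Rpl10-ps3 was 2.91-fold higher and Rpl10 0.58-fold, and since the pair are near-identical copies, neither level is certain. The large ribosomal stalk gene Rplp0 had 1073 and 1989 CPM, a ratio of 0.54 (0.50 to 0.58), and 0.62 in other cells.
Other genes are given with both ratios, and the difference between members and other cells was not tested. Hes1, a Notch target gene, had 332 CPM in iAdFASNKO (299.8 to 367) and 178 CPM in control (158 to 201), a ratio of 1.86 (1.59 to 2.19) against 1.34 in other cells. Hey1, another Notch target gene, was lower at 5 against 29 UMIs, a ratio of 0.23 (0.07 to 0.59) against 0.76 (0.50 to 1.14) in other cells. Bace2, a membrane protease gene, had 72.5 and 31.0 CPM, a ratio of 2.34 (1.62 to 3.41) against 0.76 in other cells. Traf1, an adaptor of tumour necrosis factor receptors, had 42.3 and 15.2 CPM, a ratio of 2.79 (1.66 to 4.79) against 1.65. Tubb2a, a tubulin gene, had 38.0 and 99.0 CPM, a ratio of 0.38 (0.27 to 0.54) against 0.48, and Vim, the intermediate filament gene, had 1861 and 3119 CPM, a ratio of 0.60 (0.57 to 0.63) against 0.70. Uck1, Sap130, Slc16a7 and Pvt1 were lower at 1 to 3 UMIs in iAdFASNKO against 20 to 28 in control. In other cells the ratio was 1.00 for Uck1, 1.04 for Sap130 and 0.80 for Pvt1. Slc16a7 ran the other way there, with a ratio of 1.38 (1.19 to 1.59). Hes1, Bace2, Traf1, Vim and Rpl10 were named after their values were seen, for being called under all 14 alternatives.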

How the data were processed

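Raw UMI counts were deposited as 1 sparse matrix per genotype, per the file headers and the whole-number values, and each matrix holds that genotype's Lin- and Lin+ libraries. Barcode tags give the fraction, per the labels, and the genotype was read from the matrix name. The submitters' processing notes name Cell Ranger 3.1.0, Seurat 3.0 and build mm10, while the header of the matrices reads software version 3.0.2. No source read here states the annotation release or any earlier filter. The members, gene lists and comparisons were chosen with earlier results of these data known.

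Python 3.11.15 with numpy 2.4.6, scipy 1.17.1 and pandas 2.3.3 applied the filters, summed UMIs per class and library and scaled the sums to CPM. Features sharing a symbol were summed, and 31011 of 31053 features were found in GENCODE M21. Intervals are exact Poisson for CPM, exact conditional binomial for ratios, Clopper-Pearson for shares and Katz for share ratios, all at 95%. The ratio script was tested on simulated data. Scrublet (scanpy 1.11.5, expected rate 0.06) called 98 of 4412 Lin- iAdFASNKO and 29 of 3103 Lin- control cells doublets, among them 6 and 2 members, which stayed in.

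The rule for named genes took, in each direction, 12 called genes by the interval bound nearest to 1, with UMIs in at least 8 cells and at most 25% of UMIs in 1 cell. It also took 12 genes in each direction against blood endothelial cells, and any listed gene. Genes that divide the sets, or were called under every alternative, were named after their values were seen. Alternatives varied the cell filter, member rule, doublets, shared barcodes, scaling, weighting and UMI minimum. Some genes that the rule or the lists would name are not reported here.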

Additional observations from a re-analysis of the deposited data

Results flagged for a closer look

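The Lin+ libraries, which entered no comparison, also held cells that met the member rule. There were 8 of 4494 retained cells in Lin+ iAdFASNKO (0.178%, exact interval 0.0769 to 0.350%) and 9 of 2922 in Lin+ control (0.308%, 0.141 to 0.584%). Of these, 4 in iAdFASNKO and 7 in control had a barcode kept in another library too, and for 4 and 6 of them the copy elsewhere was at least 10 times deeper.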

How the results depend on the processing

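No paired analysis was possible because each genotype had 1 library in each fraction. The member share ratio, iAdFASNKO over control, lay between 1.01 and 1.21 in 8 of 9 alternatives and was 1.69 under the stricter cell filter. The count of genes called higher stayed within 1.5 times of 332 in all 16 alternatives, and that of genes called lower in 15 of 16, with 339 in Mmrn1 members alone. Under the stricter filter 134 of its 258 higher calls and 228 of its 555 lower calls were shared with those of all members. The cause of the changes below was not tested. List medians (log2) that changed sign or moved were, for immediate early genes, 0.43 in Ccl21a or Reln members, -0.25 in Mmrn1 members and -0.23 with thinned cells. They were -0.17 for junction genes, -0.43 for trafficking genes and -0.29 for matrix genes in Ccl21a or Reln members, 0.23 for trafficking genes in Mmrn1 members, -0.28 for valve genes with thinned cells and -0.36 for matrix genes under the stricter filter. Oxidative phosphorylation genes had -0.047 with cells weighted equally and -0.047 without members rich in other markers. Of the named genes' values 37 changed sign, 168 others gained or lost their call and 1149 did neither. Under the stricter filter Jam2 had -0.12, Emilin1 -0.41 and Glycam1 -0.50. With Prox1 required, Scarb1 had -0.16, Nrp1 -0.82, Vcam1 -0.36, Selp -0.34, Efemp1 -0.50 and Aqp1 -1.05. With thinned cells Zfp36 had -0.10. Without Prox1-alone members Cytl1 had -0.59, Vcam1 -0.36, Efemp1 -1.12 and Aqp1 -1.84. Without 1 control cell of 46774 UMIs too, Cytl1 had 2.53, at 13 against 3 UMIs, and Aqp1 -0.33. In Ccl21a or Reln members H2-Eb1 had 0.22, Ube2c 0.45, Efemp1 -0.14, Emilin1 -0.069 and Aqp1 -0.84. In Mmrn1 members Cytl1 had -0.69, Flt1 -0.33, Scarb1 -0.42, Nrp1 -1.84, Zfp36 -0.27, Jam2 -0.11, Vcam1 -0.98, Selp -1.69, Sparcl1 -1.20, Acta2 -1.15, Tagln -0.037, Myh11 -0.65, Vwf -0.031 and Aqp1 -2.87. Without the control cell of 46774 UMIs, Vwf had 0.71, Cytl1 2.38, Scarb1 0.87, Flt1 3.97 and Aqp1 3.84 there. Flt1 then stood at 12 against 1 UMIs, Aqp1 at 11 against 1 and Nrp1 at 1 against 0. Without members rich in other markers Sparcl1 had -0.46, Acta2 -0.57 and Myh11 -0.26. With cells weighted equally Top2a had 0.44. The alternatives without Prox1-alone members, within each set, without shared barcodes, without that cell and without members rich in other markers were chosen after seeing the data. Members held a median of 3093 UMIs in iAdFASNKO and 8080 in control, which limits genes of few UMIs.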
